A study of Mus musculus with 6 samples.

Results

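Expression of 10 genes of the Wnt pathway was followed in murine pancreatic stellate cells (PSCs) kept at an acidic or an alkaline extracellular pH (pHe). These are the ligands Wnt2, Wnt4 and Wnt5a, the secreted antagonists Sfrp1, Sfrp2, Dkk2 and Dkk3, the R-spondin Rspo3, the receptor Fzd1 and the target gene Axin2. They were taken by name from the deposited gene table and linked by gene identifier to the raw counts. All 10 were found, and all 10 are among the 15197 genes, of 49671 in the count table, that passed the filter on low counts. PSCs are fibroblasts that reside in the pancreas, and they were isolated from C57BL6/J WT mice and used without passaging. They grew in DMEM/Ham F12 with FCS on plastic for 120 h, at pHe6.6 or at pHe7.4, and pHe was set through the amount of sodium bicarbonate, so that bicarbonate differs between the groups along with pHe. Each pHe had 3 biological replicates (A, B and C), a term that the study's methods use for separate mice, which makes 6 libraries of poly(A) RNA. The labels do not say whether replicates with the same letter share a mouse, and the groups were compared as independent.

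Wnt proteins are secreted lipid-modified ligands. They bind Frizzled receptors, and with the co-receptors Lrp5 and Lrp6 they stop the destruction complex from degrading β-catenin, which then activates target genes together with TCF/LEF factors. Other Wnt ligands, with Wnt5a as the best known, act mainly through Ror receptors and the planar cell polarity machinery without β-catenin. Secreted Frizzled-related proteins (Sfrp) bind Wnt ligands outside the cell, Dickkopf proteins (Dkk) mostly act on the co-receptors, and R-spondins protect Frizzled receptors from removal. In the pancreas, Wnt signals are known from organ development and from the stroma of pancreatic tumors.

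The ligands share a conserved site of lipid attachment. In the endoplasmic reticulum, the acyltransferase Porcn attaches a fatty acid to a conserved serine, and the extracellular enzyme Notum removes it. The coding stretch around this serine is shown for the 3 ligands as annotated in GENCODE vM21 (GRCm38), 5′ to 3′, with the codon of the serine in capitals.
Wnt4: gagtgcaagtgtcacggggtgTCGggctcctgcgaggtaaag
Wnt5a: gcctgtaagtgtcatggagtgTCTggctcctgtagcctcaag
Wnt2: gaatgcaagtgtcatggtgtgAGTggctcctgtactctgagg
The serine is residue 212 of 351 in Wnt4, residue 244 of 380 in Wnt5a and residue 212 of 360 in Wnt2. The 3 genes spell this serine with 3 different codons. Of the 42 bases, 27 are identical in all 3 ligands. Wnt2 and Wnt5a share 32 bases, Wnt4 and Wnt5a 30, and Wnt2 and Wnt4 29.

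The libraries held 28.9 to 38.3 M counts, so that 1 count corresponds to 0.0252 to 0.0339 CPM (counts scaled to library size, with TMM factors that correct for RNA composition). The 12 listed genes of stellate cells and fibroblasts summed to 37263 to 48617 CPM per library, among them Vim, the intermediate filament of mesenchymal cells, at 1202 to 1447 CPM. Of the 10 of these that were tested, Col1a1 was higher at pHe7.4, 5 (Des, Pdgfra, Pdgfrb, Dcn and Lum) were lower and 4 were not called, with a median log2 fold change of -0.30. Calls thus covered 60.0% of these 10, against 52.3% of all genes tested. Of the genes that mark quiescent stellate cells, Gfap stayed at or below 0.378 CPM and Lrat at or below 0.089 CPM. Markers of other cells were present too. The 13 mesothelial genes listed summed to 248 CPM in pHe6.6 replicate A, to 591 in B and to 506 in C, and to 1368, 1498 and 1502 CPM at pHe7.4. In pHe6.6 replicate C, 3 B-cell genes had 256 counts together, against 1 to 7 in each other library.

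Of the 10 genes, 6 were expressed at a higher level at pHe7.4, 4 did not pass the test and none was higher at pHe6.6. The genes that rose were Wnt4, Sfrp2, Axin2, Wnt5a, Fzd1 and Sfrp1, in order of their fold change. Wnt2, Dkk2, Dkk3 and Rspo3 did not pass. Calls rest on the quasi-likelihood test of edgeR, with p-values adjusted over all genes tested by the Benjamini-Hochberg method and a threshold of 0.05. Much of the transcriptome differed in this comparison. Among all genes tested 52.3% were called in either direction and 25.9% were called higher at pHe7.4 (26.4% at pHe6.6), so that a call by itself sets none of these genes apart. The median log2 fold change, given throughout as pHe7.4 over pHe6.6, was 0.97 over the 10 genes and 0.011 over all genes tested. A call with a log2 fold change beyond 0.58 was found for 6 of the 10 genes, against 29.8% of all genes tested in either direction and 14.7% with higher expression at pHe7.4. A called log2 fold change over 1 was found for 4 of the 10 genes and for 8.98% of all genes tested. The 3 libraries of one pHe did not overlap those of the other for 7 of the 10 genes and for 63.2% of all genes. Since whole cultures were sequenced, fewer cells of a type and less RNA per cell cannot be told apart in any of these values.

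**Figure D1:**
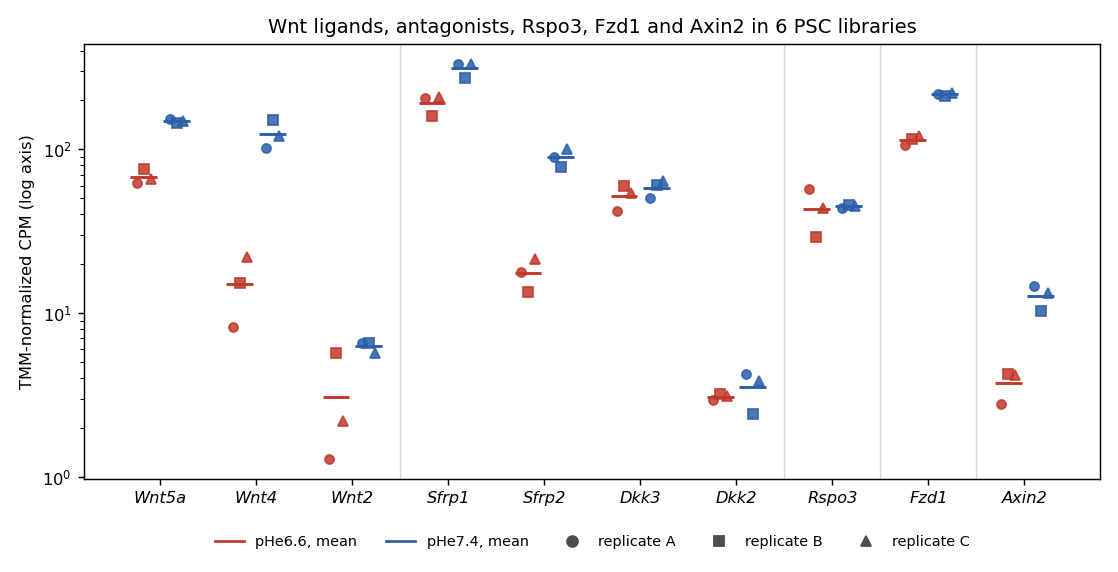
TMM-normalized CPM (log axis) of the 10 genes, grouped as ligands, antagonists, R-spondin, receptor and target. Each point is 1 library (red pHe6.6, blue pHe7.4, shape by replicate letter) and each bar is the mean of 3 libraries; the groups do not touch for Wnt5a, Wnt4, Wnt2, Sfrp1, Sfrp2, Fzd1 and Axin2, although for Wnt2 the gap is within rounding.

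**Figure D2:**
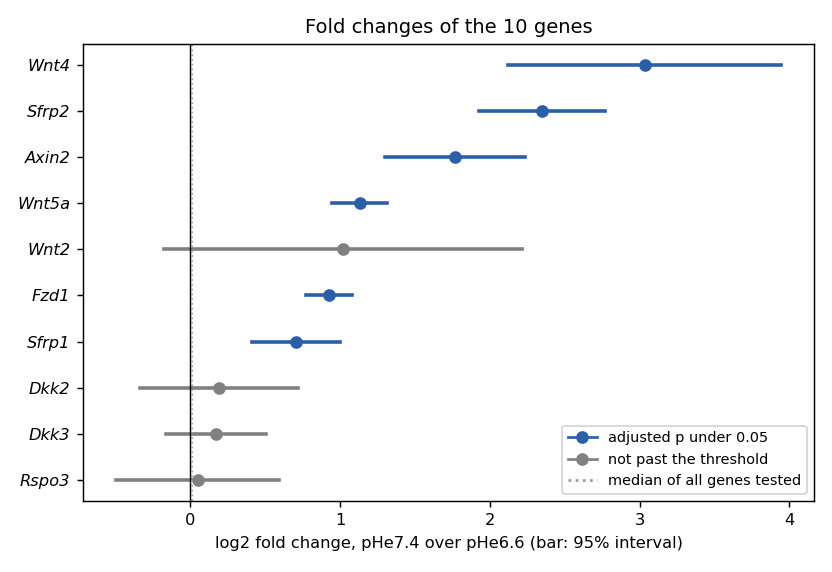
Log2 fold change of each gene (pHe7.4 over pHe6.6) with its 95% interval, from edgeR. Blue points passed the threshold of 0.05 after adjustment and gray points did not; all 10 point estimates lie above 0, from 0.05 for Rspo3 to 3.04 for Wnt4.

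Wnt4, a ligand known from kidney and gonad development that acts with or without β-catenin depending on the tissue, changed most among the 3 ligands (ENSMUSG00000036856, chromosome 4, 137277489 to 137299726 on GRCm38). At pHe6.6 it had 8.17, 15.2 and 22.1 CPM in replicates A, B and C. At pHe7.4 it had 102, 150 and 121 CPM. The lowest pHe7.4 library thus stood far above the highest pHe6.6 library, and the pHe6.6 cultures also differed among themselves, with a coefficient of variation of 45.9% against 19.5% at pHe7.4. The means were 15.1 ± 6.94 and 124 ± 24.3 CPM (SD, n = 3 libraries each). The log2 fold change was 3.04 (SE 0.37, adjusted p = 0.00121), which is an 8.20-fold difference with a 95% interval of 4.36 to 15.4. Of all genes tested, 130 had a larger log2 fold change. The rare ligand Wnt10a, described below, was level with Wnt4 at 3.03 (SE 0.42).

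Wnt5a, the main ligand of the β-catenin-independent branch, differed little within each group (ENSMUSG00000021994, chromosome 14, 28504750 to 28527448). Its level was 62.6, 75.4 and 66.0 CPM at pHe6.6 and 152, 145 and 150 CPM at pHe7.4. Both groups were tight, and no library of one came near the other. The means were 68.0 ± 6.62 and 149 ± 3.76 CPM (SD, n = 3), a 2.19-fold difference (log2 fold change 1.13, SE 0.08, adjusted p = 4.2e-05). An antisense gene, Gm2670, overlaps 4.6% of the Wnt5a exons. The libraries were made with a directional kit, the strand setting of the counting is not given in the sources used here, and Gm2670 had 126 counts in all against 22326 for Wnt5a.

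Wnt2, a ligand of the β-catenin branch, gave no call (ENSMUSG00000010797, chromosome 6, 17988940 to 18030585). It was at 1.29, 5.74 and 2.2 CPM in pHe6.6 replicates A, B and C and at 6.55, 6.55 and 5.74 CPM at pHe7.4. Replicate B at pHe6.6 was as high as replicate C at pHe7.4, while the other pHe6.6 cultures were well below. The log2 fold change was 1.02 (SE 0.50, adjusted p = 0.128), and its 95% interval of -0.17 to 2.21 holds both no difference and a difference larger than that of Wnt5a. Without pHe6.6 replicate B the log2 fold change was 1.84 (adjusted p = 0.00107). Wnt2 also passed with DESeq2 (adjusted p = 0.0475) and with limma-voom (adjusted p = 0.0351).

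The other ligands were read from a list of all 19 mouse Wnt genes, of which 10 besides these 3 were tested. Of the 10, 3 were called higher at pHe7.4, 2 at pHe6.6 and 5 in neither, with a median log2 fold change of 0.72. That is 50.0% called, against 52.3% of all genes tested. Wnt10a rose from 0.068, 0.086 and 0.211 CPM at pHe6.6 to 1.08, 1.08 and 0.917 CPM at pHe7.4 (log2 fold change 3.03, SE 0.42, adjusted p = 7.88e-04). Wnt6 went the other way, from 0.881, 0.98 and 0.904 CPM at pHe6.6 to 0.227, 0.159 and 0.177 CPM at pHe7.4 (log2 fold change -2.26, SE 0.31, adjusted p = 7.50e-04). Both are rare transcripts in these cells, with at most 43 counts in a library. Wnt10a passed the filter on low counts only through the pHe7.4 libraries, and Wnt6 only through the pHe6.6 libraries. For each, a call in the other direction was hardly open. Wnt5b, the close paralog of Wnt5a, was lower at pHe7.4 (log2 fold change -0.65, SE 0.20, adjusted p = 0.0274), and this call was lost without pHe6.6 replicate B, pHe7.4 replicate A or pHe7.4 replicate C (adjusted p = 0.0721 to 0.0908). Paralogs with similar sequence can share reads, and how the counting treated such reads is not given in the sources used here.

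Wnt7a and Wnt7b, like other genes named here beyond the rule in the processing summary, were chosen after their values were seen. Wnt7a was at 3.05, 14.9 and 7.29 CPM in pHe6.6 replicates A, B and C and at 34.9, 28.1 and 27.0 CPM at pHe7.4 (log2 fold change 1.82, SE 0.52, adjusted p = 0.0287). Wnt7b was at 4.58, 25.2 and 14.2 CPM and at 57.0, 39.2 and 39.6 CPM (log2 fold change 1.62, SE 0.56, adjusted p = 0.0527). Both had the same order of the pHe6.6 cultures as Wnt2, with A lowest and B highest. The epithelial adhesion gene Cdh1, at 15.2, 80.4 and 50.0 CPM in these cultures, had this order as well, and so did Epcam. Neither was called (adjusted p = 0.0542 and 0.0660). The other genes listed for pancreatic epithelium (Sox9, Pnlip, Cela1, Cpa1 and Ctrb1) had replicate C highest instead. The part of epithelial cells in the values of Wnt2, Wnt7a and Wnt7b was not tested. The call of Wnt7a was lost without pHe6.6 replicate C (adjusted p = 0.0973) or without any 1 of the pHe7.4 replicates, and Wnt7b passed with pHe6.6 replicate A or B left out (adjusted p = 0.0115 and 0.0159).

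Levels of different genes were compared as CPM per kb of exon, since a longer transcript yields more counts. Summed over the 19 ligand genes, this level was 24.5, 44.8 and 35.0 CPM per kb at pHe6.6 and 85.7, 89.8 and 83.7 CPM per kb at pHe7.4, which is 2.49 times as much on average. The composition shifted along with the sum. Wnt4 made up 7.96%, 8.06% and 15.0% of the sum at pHe6.6 and 28.4%, 39.9% and 34.5% at pHe7.4. Wnt5a held 32.7%, 21.5% and 24.1% at pHe6.6 and 22.7%, 20.6% and 22.9% at pHe7.4, and Wnt2 between 2.33% and 5.68% in every library. The share of Wnt11, a ligand of the planar polarity branch, went from a mean of 15.9% to 4.95%, while its own level was 19.8, 24.2 and 21.9 CPM at pHe6.6 and 20.1, 18.0 and 15.0 CPM at pHe7.4. The ratio of Wnt4 to Wnt5a was 0.243, 0.375 and 0.624 at pHe6.6 and 1.25, 1.93 and 1.51 at pHe7.4. Per kb of coding sequence in place of exon, the pHe7.4 ratios were 0.725, 1.12 and 0.876, so that which of the pair was higher at pHe7.4 depends on the length used, while the 3.78-fold shift of the mean ratio between the groups does not.

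**Figure D3:**
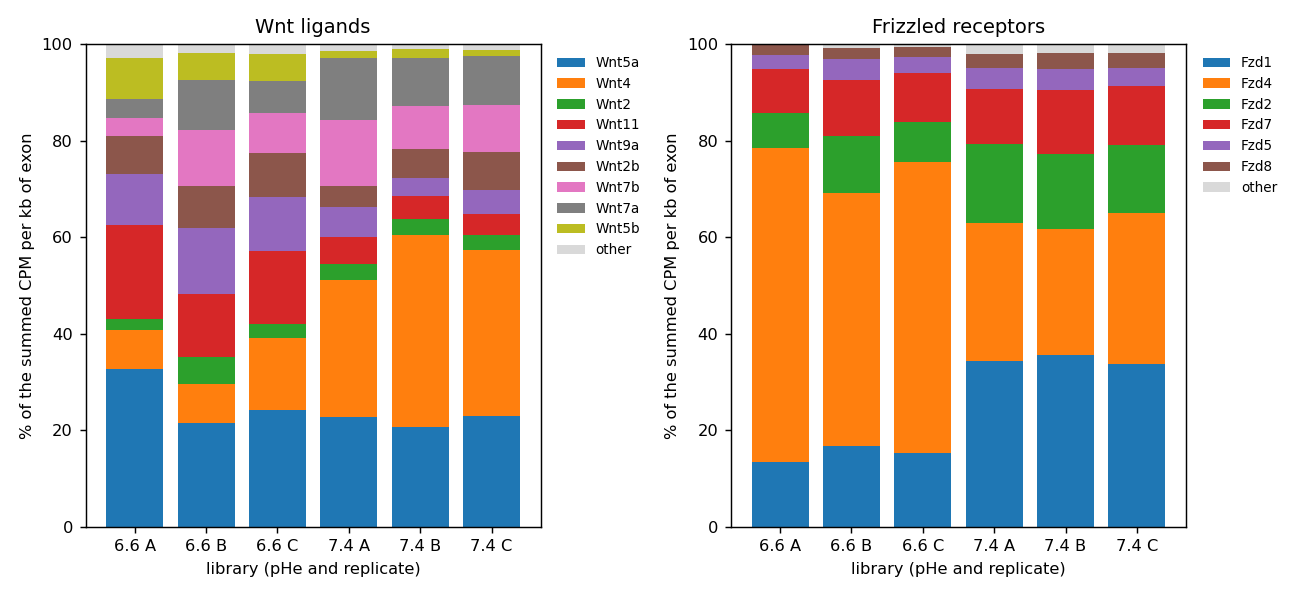
Share of each gene (%) in the summed CPM per kb of exon of the 19 Wnt ligand genes (left) and of the 10 Frizzled genes (right), 1 stacked bar per library. Wnt4 grows from 7.96-15.0% to 28.4-39.9% of the ligand sum, and Fzd1 from 13.5-16.6% to 33.7-35.6% of the Frizzled sum while Fzd4 shrinks.

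The genes that make and release an active ligand did not move together. Wls, the carrier that brings lipidated Wnt proteins to the cell surface, was the most abundant of them, at 216 to 234 CPM at pHe6.6 and 230 to 250 CPM at pHe7.4 (log2 fold change 0.10, SE 0.06, adjusted p = 0.225). Porcn, the acyltransferase that modifies the serine shown above, was lower at pHe7.4, with 5.63, 4.30 and 5.51 CPM at pHe6.6 and 2.97, 1.88 and 1.92 CPM at pHe7.4 (log2 fold change -1.18, SE 0.23, adjusted p = 0.00385). Notum, which removes the fatty acid, was higher at pHe7.4, with 2.27, 1.92 and 2.44 CPM against 3.88, 4.96 and 3.28 CPM (log2 fold change 0.87, SE 0.21, adjusted p = 0.00993).

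Among the antagonists, both Sfrp genes rose at pHe7.4 and neither Dkk gene passed the test. Sfrp2 was at 17.8, 13.4 and 21.4 CPM at pHe6.6 and at 89.5, 78.4 and 99.6 CPM at pHe7.4 (ENSMUSG00000027996, chromosome 3, 83766321 to 83774316). The groups lay far apart relative to their spread. The means of 17.5 ± 3.99 and 89.1 ± 10.6 CPM (SD, n = 3) gave a 5.09-fold difference with a 95% interval of 3.80 to 6.82 (log2 fold change 2.35, SE 0.18, adjusted p = 9.7e-05). The antisense gene Gm26771 overlaps 16.1% of the Sfrp2 exons and had 15 counts in all against 11087 for Sfrp2.

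Sfrp1, the most abundant of the 10 genes, also rose, by a smaller factor (ENSMUSG00000031548, chromosome 8, 23411502 to 23449632). It was at 205, 160 and 207 CPM at pHe6.6 and at 332, 270 and 331 CPM at pHe7.4. Replicate B was the lowest library of both groups, and the groups did not overlap. The difference was 1.63-fold with a 95% interval of 1.33 to 2.00 (log2 fold change 0.71, SE 0.13, adjusted p = 0.00286). A test for a log2 fold change beyond 0.58 did not call it (adjusted p = 0.248 with glmTreat and 0.50 with limma's treat on weighted libraries).

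The 2 Sfrp genes therefore came closer to each other at pHe7.4. The ratio of Sfrp1 to Sfrp2, per kb of exon, was 5.68, 5.86 and 4.77 at pHe6.6 and 1.83, 1.70 and 1.64 at pHe7.4, with means of 5.44 and 1.72. Per kb of coding sequence the means were 10.4 and 3.28. Within the family of 5 (Sfrp1, Sfrp2, Sfrp4, Sfrp5 and Frzb), Sfrp2 held a mean of 13.9% at pHe6.6 and 34.3% at pHe7.4, while Sfrp1 held 74.9% and 58.9%. Per kb of coding sequence, Sfrp2 held 8.06% and 21.96%, and Sfrp1 82.9% and 71.99%.

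Dkk3, a Dickkopf-related protein whose place in Wnt signaling is less clear than that of the other Dickkopf proteins, was well expressed and did not pass the test (ENSMUSG00000030772, chromosome 7, 112116017 to 112159057). Its level was 42.1, 59.3 and 53.7 CPM at pHe6.6 and 50.5, 60.6 and 63.8 CPM at pHe7.4, and the groups overlapped. The fold difference was 1.13 with a 95% interval of 0.895 to 1.42 (adjusted p = 0.339). This interval ends below the 1.63-fold estimate of Sfrp1 but overlaps the interval of Sfrp1, 1.33 to 2.00. Dkk2, which binds Lrp5 and Lrp6, was low and overlapped between the groups as well (ENSMUSG00000028031, chromosome 3, 132085292 to 132180304). It was at 2.95, 3.18 and 3.13 CPM at pHe6.6 and at 4.26, 2.42 and 3.87 CPM at pHe7.4. The fold difference was 1.14 with an interval of 0.790 to 1.65 (adjusted p = 0.509), which holds both no difference and one of the size of Sfrp1. Dkk3 made up a mean of 94.8% of the summed Dkk level at pHe6.6 and 94.7% at pHe7.4.

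Of the 10 other secreted antagonists listed, 4 were tested, of which 2 were higher at pHe7.4 and 2 were not called. Calls thus covered 50.0% of those tested, against 52.3% of all genes tested. Draxin, a secreted antagonist first known as an axon guidance protein, was at 183, 127 and 152 CPM at pHe6.6 and at 285, 253 and 291 CPM at pHe7.4 (log2 fold change 0.85, SE 0.13, adjusted p = 0.00173). It was the second source of antagonist transcripts after Sfrp1, with a mean of 28.1% and 27.4% of their summed level. Frzb, an Sfrp family member that also binds Wnt ligands, was at 14.5, 27.1 and 16.96 CPM and at 22.2, 30.8 and 22.9 CPM (log2 fold change 0.37, SE 0.25, adjusted p = 0.262), and passed with pHe6.6 replicate B left out (adjusted p = 0.0129). Summed over the 14 antagonists, the level was 109, 95.1 and 110 CPM per kb at pHe6.6 and 197, 177 and 207 CPM per kb at pHe7.4, or 1.85 times as much on average. The summed antagonist level was above the summed ligand level in every library, at 4.47, 2.12 and 3.15 times that level at pHe6.6 and 2.30, 1.98 and 2.47 times at pHe7.4. These ratios overlap between the groups.

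Rspo3, the R-spondin with the highest level here, did not pass the test (ENSMUSG00000019880, chromosome 10, 29452416 to 29535867). It was at 56.9, 29.0 and 44.0 CPM in pHe6.6 replicates A, B and C, and at 43.6, 45.8 and 44.8 CPM at pHe7.4. The pHe6.6 cultures spread around the pHe7.4 cultures on both sides, with a coefficient of variation of 32.2% against 2.53%. The fold difference was 1.03 with an interval of 0.710 to 1.5 (adjusted p = 0.869), and without pHe6.6 replicate B the log2 fold change turned to -0.17 (adjusted p = 0.237). R-spondins work through Lgr receptors and the ubiquitin ligases Znrf3 and Rnf43, which remove Frizzled receptors from the membrane. Of the 6 genes tested in this list besides Rspo3, 3 were called higher at pHe7.4, 1 at pHe6.6 and 2 in neither. That is 66.7% called, against 52.3% of all genes tested. Lgr5 had 1, 6 and 8 counts at pHe6.6 and 84, 39 and 75 counts at pHe7.4 (log2 fold change 3.58, SE 0.50, adjusted p = 8.05e-04). Lgr5 passed the filter on low counts only through the pHe7.4 libraries, so that a call in the other direction was hardly open. Rnf43 was at 0.169, 0.545 and 0.663 CPM and at 2.95, 1.40 and 2.37 CPM (log2 fold change 2.26, SE 0.47, adjusted p = 0.00522). Znrf3 rose less, from 7.19, 9.78 and 9.55 CPM to 15.8, 11.5 and 13.2 CPM (log2 fold change 0.61, SE 0.16, adjusted p = 0.0151), and its adjusted p was 0.0523 without pHe7.4 replicate A.

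Fzd1, a Frizzled receptor, rose with little spread (ENSMUSG00000044674, chromosome 5, 4753839 to 4758035). It was at 106, 116 and 120 CPM at pHe6.6 and at 218, 212 and 221 CPM at pHe7.4. The 3 cultures at each pHe nearly coincided, with coefficients of variation of 6.08% and 2.17%. The means of 114 ± 6.93 and 217 ± 4.71 CPM (SD, n = 3) gave a 1.90-fold difference with an interval of 1.71 to 2.11 (log2 fold change 0.93, SE 0.07, adjusted p = 4.4e-05).

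Fzd4, the Frizzled receptor with the highest level per kb of exon at pHe6.6 and known from retinal vessel growth, changed in the opposite direction. It was at 821, 584 and 761 CPM at pHe6.6 and at 292, 248 and 327 CPM at pHe7.4 (log2 fold change -1.32, SE 0.15, adjusted p = 4.19e-04). Of the summed Frizzled level, Fzd4 held 64.9%, 52.5% and 60.3% at pHe6.6 and 28.7%, 26.1% and 31.2% at pHe7.4. Fzd1 held 13.5%, 16.6% and 15.2% at pHe6.6 and 34.3%, 35.6% and 33.7% at pHe7.4. The ratio of Fzd4 to Fzd1 was thus 4.82, 3.15 and 3.96 at pHe6.6 and 0.837, 0.733 and 0.926 at pHe7.4. Per kb of coding sequence the pHe7.4 ratios were 1.6, 1.40 and 1.77, so that the order of the pair at pHe7.4 again depends on the length used, and the fall of the ratio does not. The sum over the 10 Frizzled genes was lower at pHe7.4, at 188, 166 and 188 CPM per kb at pHe6.6 and 151, 142 and 156 CPM per kb at pHe7.4. The mean at pHe7.4 was 0.829 times that at pHe6.6, and 0.692 times per kb of coding sequence.

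Of the 14 other receptors and co-receptors tested, 8 were called higher at pHe7.4, 3 at pHe6.6 and 3 in neither. That is 78.6% called, against 52.3% of all genes tested. Lrp5, the co-receptor of the β-catenin branch, was at 189, 184 and 185 CPM at pHe6.6 and at 107, 89.5 and 106 CPM at pHe7.4 (log2 fold change -0.88, SE 0.08, adjusted p = 1.18e-04). Ptk7, a pseudokinase co-receptor of the polarity branch, was at 158, 199 and 174 CPM and at 291, 269 and 282 CPM (log2 fold change 0.66, SE 0.09, adjusted p = 8.21e-04). Ror2, a receptor of Wnt5a, was also higher at pHe7.4, at 21.3, 24.6 and 22.6 CPM against 32.3, 30.4 and 32.8 CPM (log2 fold change 0.48, SE 0.08, adjusted p = 0.00178). Ror1 passed with more spread (log2 fold change 0.82, SE 0.22, adjusted p = 0.0201), and its adjusted p was 0.0519 to 0.0675 without pHe6.6 replicate B, pHe7.4 replicate A or pHe7.4 replicate C.

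Axin2 is a negative regulator in the destruction complex and a direct target of β-catenin and TCF, widely used to read out this branch (ENSMUSG00000000142, chromosome 11, 108920349 to 108950783). It was expressed at 2.78, 4.22 and 4.16 CPM at pHe6.6 and at 14.6, 10.2 and 13.2 CPM at pHe7.4. The lowest pHe7.4 library was above the highest pHe6.6 library by more than the range within either group. The means of 3.72 ± 0.814 and 12.7 ± 2.24 CPM (SD, n = 3) gave a 3.40-fold difference with an interval of 2.46 to 4.71 (log2 fold change 1.77, SE 0.20, adjusted p = 3.38e-04). The antisense gene Gm11670 overlaps 3.8% of the Axin2 exons and had 11 counts in all against 1716 for Axin2. At these levels Axin2 was, per kb of exon, the lowest of the 10 genes at pHe6.6 (0.675 CPM per kb) and the second lowest at pHe7.4 (2.30 CPM per kb).

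Other feedback and target genes of β-catenin and TCF were listed without regard to tissue, and 14 besides Axin2 were tested. Of these, 8 were called higher at pHe7.4, 2 at pHe6.6 and 4 in neither, with a median log2 fold change of 0.84 against 0.011 over all genes. That is 71.4% called, against 52.3% of all genes tested. Bambi, a membrane pseudoreceptor for TGF-β family ligands, was at 4.24, 5.25 and 3.74 CPM at pHe6.6 and at 12.8, 17.6 and 13.9 CPM at pHe7.4 (log2 fold change 1.74, SE 0.17, adjusted p = 1.80e-04). Tcf7, a TCF factor and itself a target, was at 1.63, 3.87 and 4.46 CPM and at 10.5, 8.45 and 10.0 CPM (log2 fold change 1.53, SE 0.33, adjusted p = 0.00787). Sp5, a transcription factor that β-catenin induces in many tissues, had 1, 5 and 0 counts at pHe6.6 and 55, 15 and 28 counts at pHe7.4 and was called (adjusted p = 0.00481). Lgr5, Rnf43, Znrf3 and Notum, described above, belong to this list as well. Sp5 and Lgr5, both among the 8, passed the filter on low counts only through the pHe7.4 libraries. A call in the other direction was hardly open to them.

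The list was not of one direction. Nkd2, an inhibitor that binds Dishevelled and the gene of the list with the highest level per kb of exon at pHe6.6, fell from 214, 215 and 168 CPM at pHe6.6 to 72.4, 74.2 and 66.5 CPM at pHe7.4 (log2 fold change -1.48, SE 0.11, adjusted p = 4.4e-05). Apcdd1, a membrane inhibitor of Wnt signaling, was lower at pHe7.4 too (log2 fold change -0.73, SE 0.13, adjusted p = 0.00214). Nkd1 and Myc were not called, with log2 fold changes of 0.13 (adjusted p = 0.556) and 0.19 (adjusted p = 0.198). Each passed once a library was left out, Nkd1 without pHe7.4 replicate A (adjusted p = 0.0339) and Myc without pHe6.6 replicate B (adjusted p = 0.0302).

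**Figure D4:**
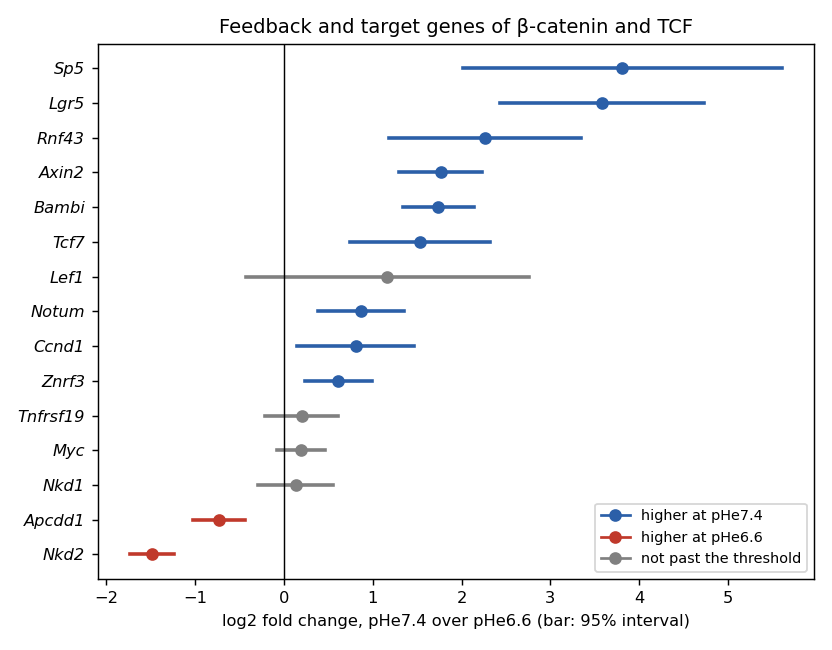
Log2 fold change (pHe7.4 over pHe6.6) with its 95% interval for Axin2 and the 14 other feedback and target genes of β-catenin and TCF that were tested. With Axin2, 9 of the 15 were higher at pHe7.4 (blue), 2 higher at pHe6.6 (red) and 4 not called (gray); Sp5 has 6 counts in all at pHe6.6, so its fitted value depends on how such low counts are handled.

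The promoters of Axin2 and Sfrp2, which among the 10 genes had the largest log2 fold changes after Wnt4, are shown as the 250 bases before the RefSeq start (GRCm38.p6), 5′ to 3′ on the strand of the gene. Capitals mark matches to the GC box GGGCGG on either strand.
Axin2, chr11:108920099-108920348, plus strand: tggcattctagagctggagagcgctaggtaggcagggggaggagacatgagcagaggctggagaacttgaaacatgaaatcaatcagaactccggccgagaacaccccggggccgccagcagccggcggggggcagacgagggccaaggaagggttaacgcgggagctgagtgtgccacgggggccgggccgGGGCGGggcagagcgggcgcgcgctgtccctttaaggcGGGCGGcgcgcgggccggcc
Sfrp2, chr3:83766071-83766320, plus strand: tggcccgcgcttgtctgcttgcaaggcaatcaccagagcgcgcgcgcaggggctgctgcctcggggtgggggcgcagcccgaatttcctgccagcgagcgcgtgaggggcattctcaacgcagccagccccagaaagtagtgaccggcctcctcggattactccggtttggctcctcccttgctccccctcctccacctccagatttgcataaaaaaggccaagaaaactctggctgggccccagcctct
The Axin2 stretch holds 2 GC boxes and the Sfrp2 stretch none, at a GC content of 69.2% and 63.6%. RefSeq windows were at hand for 6 of the 10 genes (Wnt2, Wnt4, Sfrp2, Dkk2, Axin2 and Fzd1), and these letters occur in 4 of the 6 and in 32.7% of 32851 mouse promoter windows of the same length. The Wnt4 and Wnt2 windows reach into the gene as annotated in GENCODE vM21, so that they hold bases which that annotation counts as transcribed. For this reason the Wnt4 window (8 GC boxes, GC content 85.2%) is not shown. The TCF/LEF motif was searched on both strands as CTTTGAT, found in 3.21% of all windows, and as CTTTGAA, found in 4.46%. Neither spelling occurs in any of the 6 windows. The TEAD motif GGAATG (12.6% of all windows) and the AP-1 motif TGANTCA (6.75%) were not found in them either. This says only that these letters are not in these 250 bases.

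Genes that transmit the signal inside the cell had no common direction. Of 25 genes of β-catenin transduction and its destruction complex tested besides Axin2, 6 were called higher at pHe7.4, 5 at pHe6.6 and 14 in neither, with a median log2 fold change of 0.098. Calls thus covered 44.0% of this list, against 52.3% of all genes tested. Calls over all genes were also split almost evenly, with 25.9% rising and 26.4% falling at pHe7.4. The lack of a common direction therefore does not set this list apart. Ctnnb1, which encodes β-catenin, was at 360, 387 and 360 CPM at pHe6.6 and at 547, 548 and 534 CPM at pHe7.4 (log2 fold change 0.56, SE 0.07, adjusted p = 3.76e-04). Apc2, a paralog of the tumor suppressor Apc in the destruction complex, was lower at pHe7.4 (log2 fold change -1.04, SE 0.11, adjusted p = 1.97e-04), as was Pygo1, a co-activator of β-catenin (log2 fold change -0.92, SE 0.11, adjusted p = 3.63e-04). Among the TCF factors, Tcf7 rose (above) and Tcf7l2 was lower at pHe7.4 (log2 fold change -0.83, SE 0.22, adjusted p = 0.0202), a call lost with pHe7.4 replicate A or B left out (adjusted p = 0.0733 and 0.0743).

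Of the 11 planar cell polarity genes, 4 were called higher at pHe7.4, 2 at pHe6.6 and 5 in neither. That is 54.5% called, against 52.3% of all genes tested. Prickle1, a cytoplasmic polarity protein, was at 40.8, 41.0 and 45.9 CPM at pHe6.6 and at 72.8, 71.3 and 87.5 CPM at pHe7.4 (log2 fold change 0.86, SE 0.10, adjusted p = 3.04e-04). Its paralog Prickle3 was lower at pHe7.4 (log2 fold change -0.81, SE 0.16, adjusted p = 0.00399), and so was the polarity cadherin Celsr3 (log2 fold change -1.17, SE 0.22, adjusted p = 0.00320). Over all lists, 80 of the 97 pathway genes other than the 10 were tested. Of the 80, 56.25% were called, against 52.3% of all genes tested. By direction, 29 were called higher at pHe7.4, 16 at pHe6.6 and 35 in neither, with a median log2 fold change of 0.16. Without pHe6.6 replicate C, the library with the B-cell transcripts, 19 were higher at pHe7.4. The same count was 21 without pHe7.4 replicate A or C, and 35 without pHe6.6 replicate B. Leaving out pHe6.6 replicate C also lowered the calls over all genes, from 7955 to 6273. The count of 6 among the 10 genes was the same without pHe6.6 replicate C.

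Per kb of exon, Sfrp1 and Fzd1 headed the order of the 10 genes at both pHe values, at 43.6 and 27.2 CPM per kb at pHe6.6 and at 71.1 and 51.6 CPM per kb at pHe7.4. Behind them, the order at pHe6.6 was Dkk3 (15.4), Rspo3 (14.02), Wnt5a (8.69), Sfrp2 (8.14), Wnt4 (3.61), Wnt2 (1.36), Dkk2 (0.834) and Axin2 (0.675 CPM per kb). The ranges of Dkk3 and Rspo3 overlapped there, as did those of Rspo3 and Wnt5a, Wnt5a and Sfrp2, Wnt4 and Wnt2, and Wnt2 and Dkk2. At pHe7.4 the order was Sfrp2 (41.4), Wnt4 (29.7), Wnt5a (19.0), Dkk3 (17.4), Rspo3 (14.5), Wnt2 (2.78), Axin2 (2.30) and Dkk2 (0.949 CPM per kb). Only Wnt5a and Dkk3, and Wnt2 and Axin2, overlapped as neighbors. Sfrp2 and Wnt4, below Dkk3 and Rspo3 at pHe6.6, were thus above them at pHe7.4. Per kb of coding sequence this held as well and Sfrp1 also came first, while Wnt5a was level with Fzd1 at pHe6.6 (59.6 and 59.2 CPM per kb), and both Wnt5a (131) and Wnt4 (118) were above Fzd1 (113 CPM per kb) at pHe7.4.

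Mesothelial, epithelial and endothelial marker genes had higher sums at pHe7.4, the direction of Wnt4, Sfrp2 and Axin2, and macrophage genes did not. Of the 13 mesothelial genes, 9 were higher at pHe7.4, 1 was higher at pHe6.6 and 3 were not called, and their sums, given above, ranged from 248 to 591 CPM at pHe6.6 and from 1368 to 1502 CPM at pHe7.4. Calls covered 76.9% of this list, against 52.3% of all genes tested. The mesothelial membrane gene Upk3b was at 6.98, 23.8 and 39.8 CPM at pHe6.6 and at 74.3, 186 and 156 CPM at pHe7.4. In both groups its order of the libraries was that of Wnt4, with replicate A lowest at either pHe, C highest at pHe6.6 and B highest at pHe7.4. Upk3b is 1 of 5 mesothelial genes, of 13, with this order. Krt8, Krt18 and Krt19 instead had B highest at pHe6.6 and A highest at pHe7.4, as did the epithelial genes Cdh1 and Epcam. In every pHe7.4 library Krt18 (364 to 483 CPM) and Krt8 (335 to 434 CPM) were the largest terms of the mesothelial sum. Sfrp2 and Axin2 had other orders, with replicate B lowest for both at pHe7.4 and for Sfrp2 at pHe6.6. The mesothelial surface gene Msln, one of the 3 not called, was at 4.37, 15.2 and 12.0 CPM at pHe6.6 and at 15.2, 13.6 and 16.5 CPM at pHe7.4.

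Sums over 7 genes of pancreatic epithelium were 54.0 to 158 CPM at pHe6.6 and 234 to 358 CPM at pHe7.4, with 1 of the 7, Sox9, called. Sums over 6 endothelial genes were 15.0 to 28.1 CPM and 41.7 to 53.4 CPM, with 5 called higher and 1 lower at pHe7.4. Macrophage genes summed to 544 to 1027 CPM and 525 to 805 CPM and overlapped between the groups, with 1 of 10 called higher and 2 lower at pHe7.4. Calls covered 14.3% of the epithelial, 100% of the endothelial and 30.0% of the macrophage genes, against 52.3% of all genes tested. No list of other cells was at 0 in any library, although the B-cell genes Cd79a and Ms4a1 and the acinar gene Cpa1 had no count in some. The part of these cells in the values of the 10 genes was not tested.

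**Figure D5:**
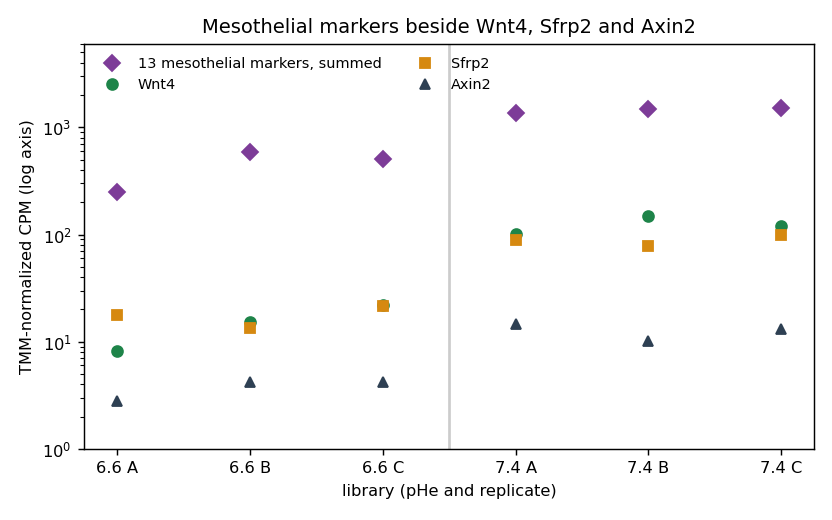
TMM-normalized CPM (log axis) of Wnt4, Sfrp2 and Axin2 and the sum of 13 mesothelial marker genes, 1 position per library. In every pHe7.4 library the largest terms of the sum are the keratins Krt18 and Krt8. All 4 are higher in the 3 pHe7.4 libraries than in the 3 pHe6.6 libraries. Among the pHe6.6 libraries the marker sum is lowest in replicate A (248 CPM), as are Wnt4 (8.17 CPM) and Axin2 (2.78 CPM). Sfrp2 is lowest in B (13.4 CPM), where the sum is highest (591 CPM). Among the pHe7.4 libraries the sum (1368 CPM) and Wnt4 (102 CPM) are lowest in A, where Axin2 is highest (14.6 CPM).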

How the data were processed

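RNA of 6 PSC cultures was sequenced. The authors mapped the reads to mm10 (HISAT2 2.2.1) and extracted counts for each Ensembl gene (featureCounts 2.0.1). The deposited values used here are these raw counts. The annotation release and the strand setting are not given in the sources used here. A second deposited table holds the authors' own comparison (log2 fold changes, mean log2 CPM, t scores and p-values), of which only the gene names were used. A gene was tested if 2 or more libraries reached 0.5 CPM, the filter named in the study's methods.

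Counts were TMM-normalized and compared with the robust quasi-likelihood test of edgeR 4.0.16 in R 4.3.3, with no covariate, Benjamini-Hochberg adjustment over all 15197 genes and a threshold of 0.05. The SE was taken as the size of the log2 fold change over the root of F. The scripts were tested on simulated data. Of the 49671 genes, 49326 had a symbol in GENCODE vM21 (GRCm38, the assembly behind mm10), whose summed exon lengths gave CPM per kb. Totals were 28904761 to 38331877 counts, the common biological coefficient of variation was 0.140, and 3 counts, the limit that a count of 0 allows, are 0.0756 to 0.102 CPM, which covers counting error only. The median log2 fold change of all genes was 0.011 with TMM and 0.043 with upper-quartile factors.

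The 10 genes and all gene lists were chosen with earlier results of these data known, so that their counts are not independent evidence. Named beyond the 10 were, from each pathway list, the gene with the highest level per length and at most 3 genes by smallest adjusted p. Any other gene named was chosen after its values were seen. The B-cell markers as first listed held 1 further gene, which is not reported here. The study's methods equate biological replicates with mice, and the labels do not say whether same-letter cultures share one. Alternatives were 2 other normalizations, DESeq2 1.42.0, limma-voom (limma 3.58.1), tests against a fold threshold, other filters, a replicate block, coding length and leaving out each library. Plots were drawn with matplotlib 3.10.9. Promoter sequences are from RefSeq, and reads were not realigned.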

Additional observations from a re-analysis of the deposited data

How the results depend on the processing

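Each of the 10 genes was refitted under 15 alternatives. Wnt4, Wnt5a, Sfrp2, Axin2 and Fzd1 passed under all of them, and Dkk2 and Dkk3 under none. Sfrp1 lost its call only in the tests against a log2 fold change of 0.58, by limma's treat on weighted libraries (log2 fold change 0.70, adjusted p = 0.50) and by glmTreat (0.71, adjusted p = 0.248), which ask for more by construction. Wnt2 passed with DESeq2 (1.02), with limma-voom (1.26) and without pHe6.6 replicate B, and leaving out single libraries moved it between 0.65 and 1.84. For Rspo3 the same range was -0.17 to 0.29, and its sign turned only without pHe6.6 replicate B. Over all genes, 7955 were called, against 2263 with treat and 2333 with glmTreat. Of the other pathway genes, 29 were higher at pHe7.4, against 11 and 8 in these tests and 19 to 35 without single libraries, and 16 were higher at pHe6.6, against 7 and 8. Without a filter on low counts, 20 were higher at pHe7.4.

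With the replicate letter as a replicate block, 7408 genes were called, and 6 of the 10 genes and 27 of the other pathway genes were higher at pHe7.4. The block changed no call among the 10. Deviations from the group mean correlated between same-letter cultures at -0.063 for A, -0.00037 for B and 0.228 for C. Between cultures of different letters the correlations ran from -0.185 to 0.174. With 3 libraries per group, these values cannot tell whether a letter stands for a shared mouse. The letters were not taken as pairs because the methods state no pairing and the labels do not say what a letter shares. For genes at a few counts per library, such as Lgr5 and Sp5 at pHe6.6, depth limits how well the size of a change is known.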
